A study of Mus musculus with 2 samples.

Results

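Ascl3, Foxi1, Cftr, Coch, Atp6v1b1 and Moxd1 are genes tied to ionocytes and to the ion transport they carry out, and their levels were followed through the cells of the mouse olfactory epithelium. The genes were chosen by symbol, and all 6 were found among the 32534 features of both count matrices. The cells came from 2 mice, each given as 1 library of droplet-based single-cell RNA sequencing. The transgenic mouse was a 9-week-old female with the genotype Tg(Or8a1-OR1A1,-MAPT/mCherry)D736Feins/+, whose name gives Or8a1 as the driver of the odorant receptor OR1A1 and of an mCherry reporter with MAPT. The wild-type mouse was an 8-week-old female labelled WT, whose strain label names 10G4-V2.2-#7/Jax in a cross (x) with Bl6/129SF1/J. Olfactory epithelium was dissociated with enzymes without sorting for a cell type. With 1 library per genotype, the libraries differ at once in genotype, strain, age, animal and preparation, and these cannot be told apart; no test between genotypes was possible and none is given.

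Ionocytes are rare epithelial cells that move chloride, protons and sodium across the surface of an epithelium. The forkhead factor Foxi1 is the known master regulator of such cells in airway, kidney and inner ear, and the basic helix-loop-helix factor Ascl3 is found with it in airway ionocytes and salivary duct cells. Among the products of such cells are the chloride channel Cftr, which is mutated in cystic fibrosis, and Atp6v1b1, the B1 subunit of the proton pump (V-ATPase) of acid-secreting cells, known from kidney intercalated cells as a target of Foxi1. Coch encodes cochlin, a secreted matrix protein best known from the inner ear, and Moxd1 encodes a monooxygenase-like protein related to dopamine beta-hydroxylase. In the olfactory epithelium, microvillar cells fall into a tuft type marked by Trpm5 and a type that shares genes with ionocytes.

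The windows around the starts of 3 of the genes are shown because these genes are the regulators and the member whose pattern departed from theirs. All are RefSeq sequence on GRCm38.p6, from 250 bases before to 50 bases after the gene's start, 5′ to 3′ on the gene's own strand. The Ascl3 window lies at chr7:109731683-109731982 on the minus strand, the Foxi1 window at chr11:34208040-34208339 on the minus strand and the Atp6v1b1 window at chr6:83742767-83743066 on the plus strand. Capitals mark the E-box CANNTG, the type of site bound by basic helix-loop-helix factors, and the forkhead motif TGTTTAC, both searched on both strands.
Ascl3: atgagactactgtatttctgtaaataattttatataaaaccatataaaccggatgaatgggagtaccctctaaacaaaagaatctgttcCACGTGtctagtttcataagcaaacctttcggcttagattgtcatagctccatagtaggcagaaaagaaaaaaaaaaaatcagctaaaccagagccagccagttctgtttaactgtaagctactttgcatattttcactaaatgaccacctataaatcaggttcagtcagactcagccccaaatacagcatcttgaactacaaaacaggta
Foxi1: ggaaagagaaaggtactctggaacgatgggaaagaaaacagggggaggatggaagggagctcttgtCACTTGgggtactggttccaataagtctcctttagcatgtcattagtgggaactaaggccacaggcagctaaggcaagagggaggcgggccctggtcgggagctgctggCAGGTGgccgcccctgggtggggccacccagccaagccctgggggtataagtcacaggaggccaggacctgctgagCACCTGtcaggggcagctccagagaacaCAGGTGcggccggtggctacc
Atp6v1b1: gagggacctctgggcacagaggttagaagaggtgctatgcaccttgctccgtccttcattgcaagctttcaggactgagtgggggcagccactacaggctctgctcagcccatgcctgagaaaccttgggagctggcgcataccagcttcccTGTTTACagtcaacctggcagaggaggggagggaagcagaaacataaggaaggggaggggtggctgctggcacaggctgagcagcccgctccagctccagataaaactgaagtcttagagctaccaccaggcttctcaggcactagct
The Ascl3 window held 1 E-box and the Foxi1 window held 4, and neither held the forkhead motif. The Atp6v1b1 window held 1 forkhead motif, which began at position -98 relative to the start, and no E-box. The windows of Cftr and Moxd1, at chr6:18170437-18170736 and chr10:24223267-24223566 on the plus strand, held 1 E-box each, and the window of Coch, at chr12:51593091-51593390 on the plus strand, held neither motif. Over all 32851 windows of the same length, 72.3% held CANNTG and 3.65% held TGTTTAC. The E-box CAGCTG, found in 16.3% of all windows and a part of the CANNTG matches, was in none of the 6. These matches describe letters only.

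The libraries held 70572741 UMIs in the transgenic mouse and 55701219 UMIs in the wild-type mouse, and 1745 and 1117 barcodes were called as cells. A UMI is a molecule counted once, at the 3′ end of its transcript, so that levels of different genes can be set side by side in counts per 1000000 UMIs of the cells (CPM) without a correction for length. Called cells of the libraries shared 1 barcode sequence. The feature 1A1_tg, taken as the transgene, had 4864 UMIs in the transgenic library and 6 in the wild-type library. Intervals are 95% intervals, exact binomial for shares, exact Poisson for levels and conditional binomial for ratios, and they cover counting error only.

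Cells were clustered without the 6 genes and without the genes of the lists described here, and 1 cluster carried the ionocyte-like microvillar cells. All 9 naming markers of the class were at least 2-fold higher in it than in the other cells, among them Stap1 at 3255 CPM in the transgenic library and 2936 CPM in the wild-type library, although Insrr rested on 1 cell in each library. The class held 44 of the 1745 transgenic cells (2.52%, interval 1.84 to 3.37) and 13 of the 1117 wild-type cells (1.16%, 0.621 to 1.98). Its cells had median totals of 14490.5 UMIs in the transgenic mouse and 16688 UMIs in the wild-type mouse. Tuft-like cells numbered 40 and 23, sustentacular-like cells 85 and 21, Bowman's gland-like cells 20 and 8, and mature olfactory sensory neuron-like cells 639 and 437 in the transgenic and wild-type libraries. No cluster was named respiratory ciliated or respiratory secretory. Another 4 clusters passed the marker threshold of a class but are called by their leading genes, with labels set by hand. The leading genes of the Adh7-led cluster included Krt15, a naming marker of horizontal basal cells, and Bpifb1 and Scgb3a1, naming markers of respiratory secretory cells. The Dcpp-led cluster (Dcpp1, Dcpp3, Msln) came nearest to sustentacular cells, with 4 markers 2-fold higher and a mean log2 excess of 1.86. The lipocalin-led cluster (Obp and Lcn genes) came nearest to respiratory secretory cells (4 markers, 2.12), the Adh7-led cluster to horizontal basal cells (6 markers, 3.48) and the Mpo-led cluster to B cells (5 markers, 3.37).

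The regulators were found in nearly all ionocyte-like cells. Ascl3 was detected in 41 of 44 transgenic cells (93.2%, interval 81.3 to 98.6) at 1557 CPM (1470 to 1646), with a median of 28 and a maximum of 74 UMIs per cell. In the wild-type library Ascl3 was detected in 11 of 13 cells (84.6%, 54.6 to 98.1) at 566 CPM (477 to 666), with a median of 12 and a maximum of 30 UMIs. The counts per cell in the transgenic class were the higher ones, and detection was near complete in both. Foxi1 was detected in 42 of 44 transgenic cells (95.5%) at 475 CPM (428 to 525), with a median of 7.5 UMIs per cell, and in 12 of 13 wild-type cells (92.3%) at 546 CPM (459 to 645), with a median of 7 UMIs. Foxi1 was thus found as often as Ascl3 with fewer UMIs per cell, at levels whose intervals overlapped between the libraries.

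The products divided into a group found in most ionocyte-like cells and 1 gene that was found in few. Cftr was detected in 41 of 44 transgenic cells at 702 CPM (644 to 763) and in 11 of 13 wild-type cells at 531 CPM (445 to 628), with medians of 12 and 14 UMIs per cell. Moxd1 was detected in 41 of 44 transgenic cells at 1009 CPM (940 to 1082) and in 10 of 13 wild-type cells (76.9%) at 605 CPM (513 to 709), with medians of 18 and 13 UMIs. Coch was the most abundant member. It reached 9743 CPM (9526 to 9964) in the transgenic class and 8317 CPM (7966 to 8679) in the wild-type class, with medians of 201.5 and 171 UMIs per cell, and in the median cell it made up 1.19% and 1.08% of all UMIs.

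Atp6v1b1 did not follow the others. It was detected in 7 of 44 transgenic ionocyte-like cells (15.9%, 6.64 to 30.1) at 15.3 CPM (7.91 to 26.7) and in 2 of 13 wild-type cells (15.4%, 1.92 to 45.4) at 7.86 CPM (0.952 to 28.4). Of the 7 transgenic cells 4 held 1 UMI, 2 held 2 UMIs and 1 held more, up to 4, and both wild-type cells held 1 UMI. The median count was 0 in both libraries, so the gene that encodes the pump's B1 subunit was at single UMIs where the class had it at all.

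**Figure D1:**
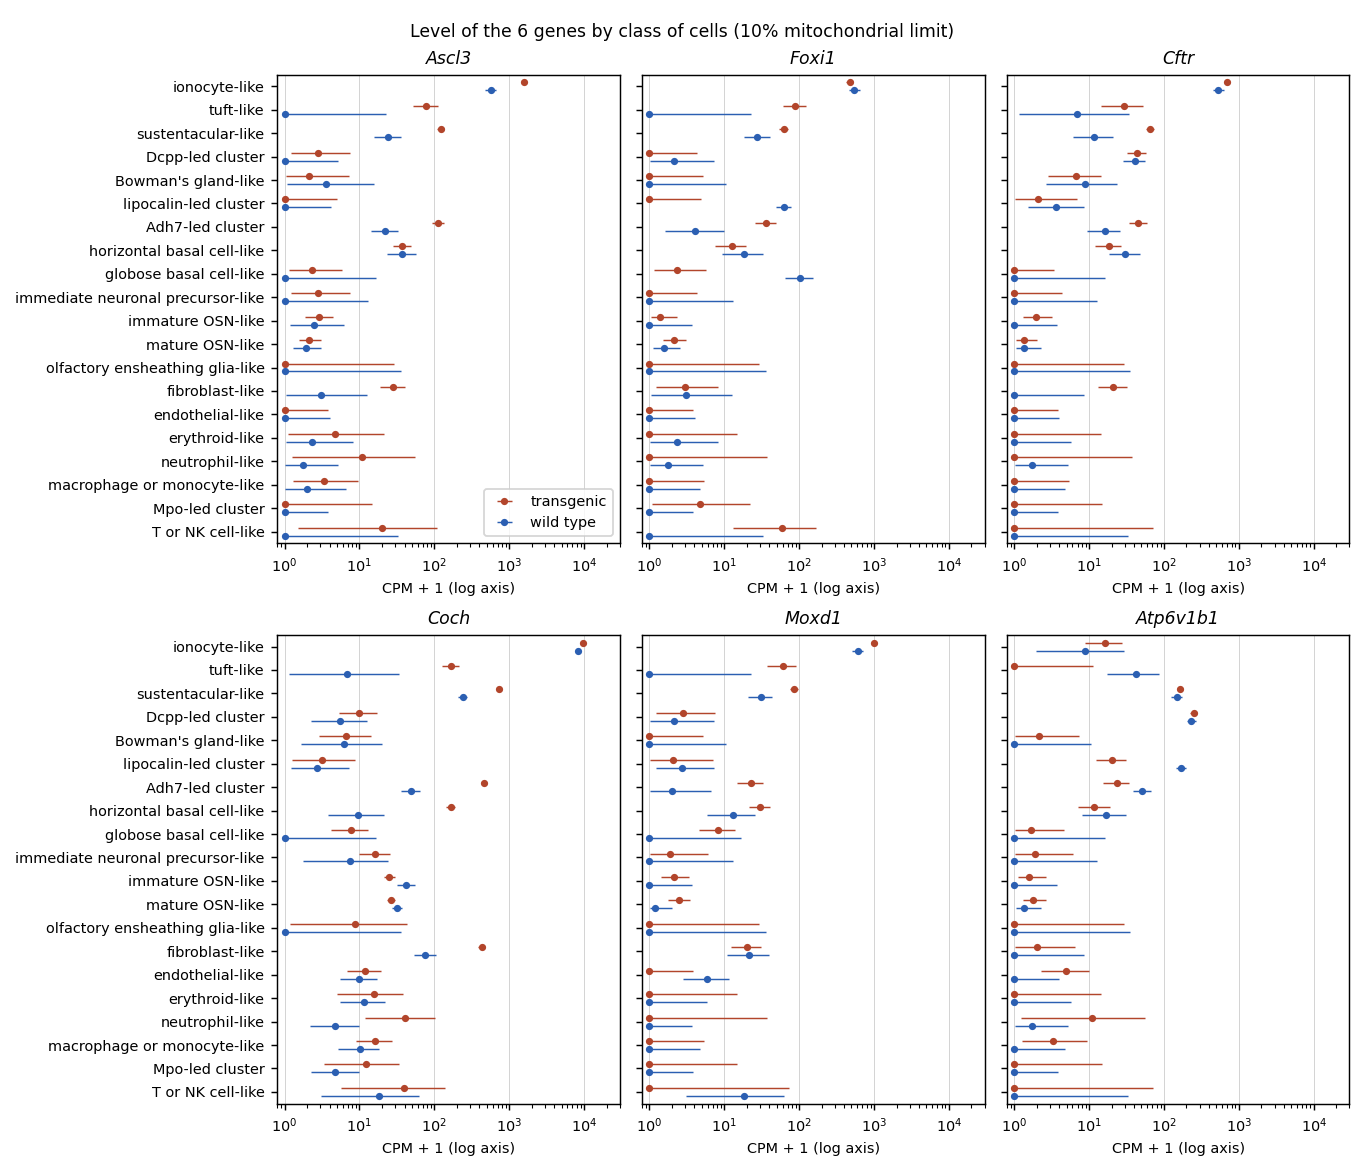
Levels of the 6 genes in each cell class, in CPM with 1 CPM added on a log axis, with exact Poisson 95% intervals; red points are the transgenic library and blue points the wild-type library. Ascl3, Foxi1, Cftr, Coch and Moxd1 are highest in the ionocyte-like class in both libraries, whereas Atp6v1b1 is highest in the Dcpp-led cluster, at 248 CPM in the transgenic library and 232 CPM in the wild-type one.

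Mature olfactory sensory neuron-like cells served to read the level of free RNA, as a class taken to lack these genes. Their median totals were 13839 UMIs in the transgenic library and 12430 UMIs in the wild-type library, close to those of the ionocyte-like class. Ascl3 was detected in 1.56% and 0.915% of them, Foxi1 in 1.41% and 0.686%, Cftr in 0.469% and 0.458%, Moxd1 in 2.03% and 0.229%, and Atp6v1b1 in 1.10% and 0.458%. Coch was detected in 26.0% of transgenic and 26.5% of wild-type neurons, but at 25.1 and 31.1 CPM. Barcodes with under 100 UMIs, which are mostly droplets without a cell, held Coch at 534 CPM in the transgenic library and 305 CPM in the wild-type one, so single Coch UMIs in other cell types were not read as expression. In the transgenic library fibroblast-like cells had Coch above its CPM in the neurons but below its CPM in the barcodes with under 100 UMIs. It was at 247 CPM in 21.7% of these cells, without the 1 cell that held Ascl3, Foxi1, Cftr and Moxd1 together. The source of this Coch was not tested. Atp6v1b1 in the ionocyte-like class, at 15.3 and 7.86 CPM, was no higher than its 17.3 and 14.7 CPM in those near-empty barcodes, and its share of cells there was above that in the neurons in the transgenic library (15.9% with interval 6.64 to 30.1, against 1.10% with interval 0.442 to 2.24).

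Set against all other called cells of its library, the class stood out for 5 of the 6 members. Ascl3 was 66.5-fold higher in the transgenic library and 141-fold higher in the wild-type library, Foxi1 43.0-fold and 73.2-fold, Cftr 52.7-fold and 115-fold, Coch 66.8-fold and 265-fold, and Moxd1 67.2-fold and 197-fold; these folds count a few cells outside the class that held 4 of the genes together, and the values without them are given with those cells. Of all genes with enough UMIs to be compared, 6.85% of 7494 in the transgenic library and 8.69% of 7476 in the wild-type library were 2-fold or more higher in the class, and 18.1% and 16.2% were 2-fold or more lower. Atp6v1b1 lay on the other side, with log2 ratios of -0.94 (-2.02 to -0.25) in the transgenic library and -1.45 (-5.08 to -0.17) in the wild-type one; its ratio turned positive where the class was built from single cells with 3 or more of the 9 naming markers (1.73 and 2.81) and, in the transgenic library, where every cell was thinned to 5000 UMIs (0.16). The class was a cluster, so these ratios are descriptions and carry no test.

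The ionocyte-like class ranked first for Ascl3, Foxi1, Cftr, Coch and Moxd1 in both libraries, and its intervals overlapped those of no other class. Behind it came the sustentacular-like cells for Ascl3 in the transgenic library, at 120 CPM (109 to 132), with the Adh7-led cluster within the same interval at 110 CPM (91.8 to 132). In the wild-type library horizontal basal-like cells at 36.5 CPM (22.6 to 55.7) and sustentacular-like cells at 23.4 CPM (14.7 to 35.4) could not be separated for Ascl3. The wild-type horizontal basal-like value rested on 1 of 21 cells, and the other cells of that class held no Ascl3 UMI. In the transgenic Adh7-led cluster 2 of 28 cells held Ascl3, Foxi1, Cftr and Moxd1 together, and the others had Ascl3 at 3.51 CPM. Coch was second in sustentacular-like cells in both libraries, at 735 and 239 CPM. For Foxi1 the next places rested on single cells: 1 of 40 transgenic tuft-like cells held all of the tuft-like class's 31 UMIs (87.4 CPM), and 1 of 7 wild-type globose basal-like cells held all 24 (101 CPM). Bowman's gland-like cells had no Foxi1 or Moxd1 UMI in either library, which, with 3 counts set as the limit of a count of 0, allows up to 15% of 20 and 37.5% of 8 cells to hold a UMI and sets no limit on cells that express the gene.

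The signal in the sustentacular-like class came from few cells. Among sustentacular-like cells, the supporting cells of the epithelium, 17 of 85 in the transgenic library and 2 of 21 in the wild-type library held Ascl3, Foxi1, Cftr and Moxd1 together. These cells had median totals of 78028 and 57936 UMIs, against 27013 and 40511 UMIs in the other sustentacular-like cells. They held medians of 175 and 109 Coch UMIs and of 56 and 54.5 Stap1 UMIs, and at the same time 393 and 225.5 UMIs of the sustentacular enzyme gene Cyp2g1, against 174.5 and 131 UMIs of Cyp2g1 in the others. They thus held genes of both classes; whether such barcodes hold more than 1 cell was not tested, and Scrublet had marked 4 transgenic and 2 wild-type barcodes as doublets in all. Leaving out cells picked for holding Ascl3, Foxi1, Cftr and Moxd1 lowers the levels of these genes by construction. Without them the sustentacular-like class had Ascl3 at 0.402 CPM in the transgenic library and no UMI in the wild-type library, and Moxd1 at 0.804 and 1.21 CPM. Atp6v1b1 stayed high in it without them, at 171 and 147 CPM.

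Over all classes outside the ionocyte-like one, 23 transgenic and 3 wild-type cells held those 4 genes together. As they were picked for holding Ascl3, Foxi1, Cftr and Moxd1, leaving them out raises the ionocyte-like class's shares and folds for these genes by construction. With these cells left out, the class held 96.9% of the Ascl3 UMIs of transgenic cells and 81.4% of those of wild-type cells, against 63.1% and 65.5% with them. The corresponding shares were 91.2% and 85% for Coch, 94.7% and 86.0% for Moxd1, 87.2% and 68.2% for Cftr, and 94.9% and 56.7% for Foxi1. The folds over other cells moved too, to 1149 and 321 for Ascl3, 683 and 96.5 for Foxi1, 250 and 158 for Cftr, 381 and 417 for Coch, and 661 and 453 for Moxd1, so that for all of these but Coch the transgenic fold was then the higher one. Among these 5 genes wild-type Foxi1 had the lowest share of its UMIs in the class.

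**Figure D2:**
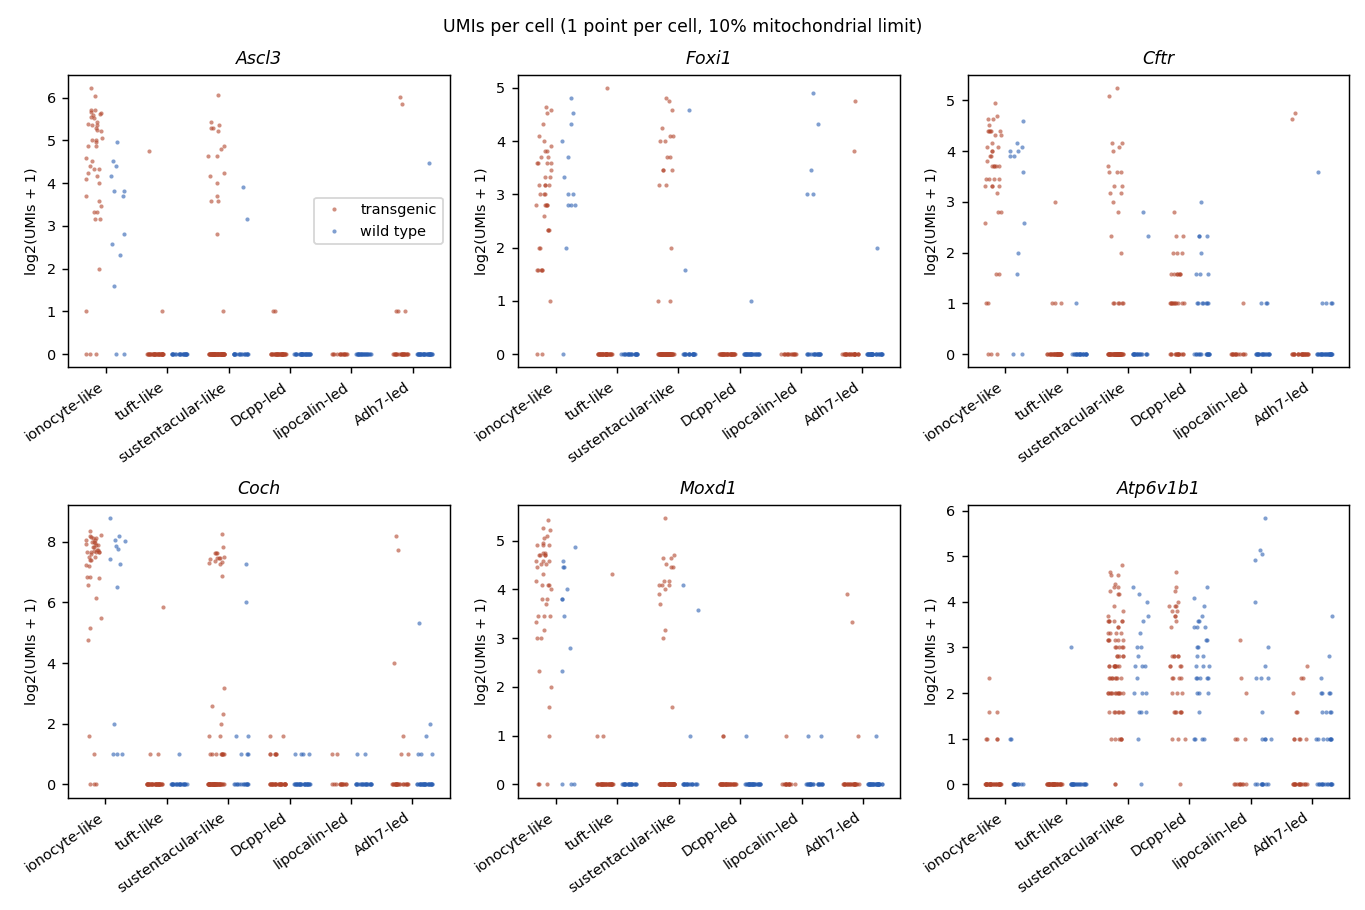
UMIs of the 6 genes in single cells of 6 classes, as log2 of UMIs plus 1, in the transgenic (red) and wild-type (blue) library; each point is a cell. Ionocyte-like cells sit high for 5 genes and at or near 0 for Atp6v1b1, sustentacular-like cells fall into many at 0 and 17 transgenic and 2 wild-type cells with the ionocyte genes, and Atp6v1b1 is high in the sustentacular-like and Dcpp-led cells.

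Atp6v1b1 was a gene of other epithelial classes. In sustentacular-like cells it was detected in 83 of 85 transgenic cells (97.6%) at 162 CPM (150 to 176) and in 20 of 21 wild-type cells (95.2%) at 147 CPM (123 to 173), with median totals of 34369 and 40511 UMIs per cell. In the Dcpp-led cluster it was detected in 38 of 39 transgenic cells at 248 CPM (219 to 279) and in all 31 wild-type cells at 232 CPM (201 to 266). The Dcpp-led cluster was thus first in both libraries, and no other class had an interval that reached it. The Adh7-led cluster held it in 39.3% of its transgenic cells and 55.9% of its wild-type cells, at 22.3 and 50.2 CPM. The lipocalin-led cluster had 19.3 CPM in the transgenic library and 168 CPM (145 to 193) in the wild-type one, and this last value overlapped that of wild-type sustentacular-like cells. Tuft-like cells had no Atp6v1b1 UMI in the transgenic library, which by the same limit of 3 counts allows a UMI in up to 7.5% of 40 cells, and 7 UMIs in 1 of 23 wild-type cells.

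Cftr was the other member with a place outside the ionocyte-like class. It was detected in 24 of 39 transgenic (61.5%) and 15 of 31 wild-type (48.4%) Dcpp-led cells, at 42.6 and 39.6 CPM, against 702 and 531 CPM in ionocyte-like cells. None of these Dcpp-led cells held all of Ascl3, Foxi1, Cftr, Coch and Moxd1, and Foxi1 was detected in 0 of 39 transgenic and 1 of 31 wild-type cells. The Dcpp-led cluster therefore had both the channel gene and the B1 pump gene with next to no Foxi1.

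A second set of Foxi1-bearing cells appeared within the wild-type lipocalin-led cluster. In it, 0 of 15 transgenic cells held Foxi1, against 5 of 24 wild-type cells, at 7 to 29 UMIs with a median of 10. These 5 wild-type cells had no UMI of Ascl3, Moxd1 or Stap1 and 1 Coch UMI in all. They held Atp6v1b1 at 15 to 56 UMIs with a median of 32, Atp6v1c2, the C2 subunit of the same pump, at 23 to 43 UMIs, and the chloride importer gene Slc12a2 at 62 to 119 UMIs. Atp6v1b1 stood at 574 CPM in them and at 34.2 CPM in the rest of the cluster. They held little of the genes that name the cluster: Obp2a was at 187 CPM in them and at 256658 CPM in the rest. So within this cluster, Foxi1 together with Atp6v1b1, without Ascl3 and with at most 1 Coch UMI, was found in 5 cells of 1 library, chosen here after their values were seen. At a mitochondrial limit of 20% Foxi1 was in 0 of 23 transgenic cells of the cluster and 6 of 33 wild-type cells.

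Within the ionocyte-like class, most cells held Ascl3, Foxi1, Cftr, Coch and Moxd1 together. Each gene was in most cells of the class, so joint detection there lay near the product of the single shares. Ascl3 and Foxi1 were together in 41 transgenic cells, against 39.1 by that product, and in 11 wild-type cells, against 10.2. All 5 genes were detected in 39 of 44 transgenic cells (88.6%, interval 75.4 to 96.2) and in 10 of 13 wild-type cells (76.9%, 46.2 to 95). Outside the class, all 5 were found in 22 of 1701 transgenic cells (1.29%) and 2 of 1104 wild-type cells (0.181%), 16 and 2 of them sustentacular-like, and 69.9% and 74.5% of cells outside held none. Tuft-like cells, the other microvillar type, held all 5 in 1 of 40 transgenic cells and in none of 23 wild-type cells.

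The cells of the class that lacked some of the 5 genes were few and set apart by Coch. In the transgenic class 5 cells had under 10 Coch UMIs, and 2 of these 5 held Ascl3, 3 held Foxi1 and 2 held Stap1, while all 39 cells with 10 or more Coch UMIs held Ascl3, Foxi1, Cftr, Moxd1 and Stap1. In the wild-type class 4 cells had under 10 Coch UMIs, with Ascl3 in 2, Foxi1 in 3 and Stap1 in 2, and all 9 others held the full set. Atp6v1b1 was in 2 of the 5 transgenic and 2 of the 4 wild-type low-Coch cells, against 5 of 39 and 0 of 9. The low-Coch cells had higher median totals, 21716 and 19818 UMIs against 13926 and 12404 UMIs, so detection is not compared at equal depth. Whether the low-Coch cells are of the ionocyte type was not tested.

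**Figure D3:**
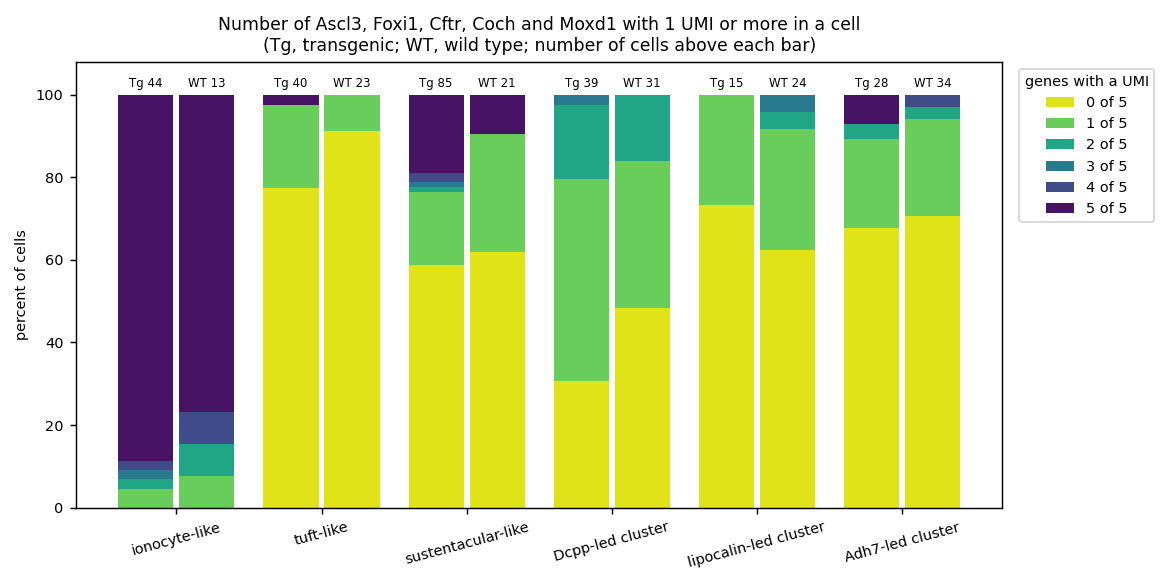
Percent of cells that held 0 to 5 of the genes Ascl3, Foxi1, Cftr, Coch and Moxd1, by class, with the bar of the transgenic library (Tg) left of that of the wild-type library (WT) and the number of cells above each bar. All 5 genes are found together in 88.6% of transgenic and 76.9% of wild-type ionocyte-like cells, while most cells of the other classes hold 0 or 1.

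The size of the class moved more with the limit on mitochondrial UMIs than with any other setting tried. Cells with over 10% mitochondrial UMIs had been left out, and at a limit of 20% the class held 196 transgenic and 68 wild-type cells (8.5% and 4.56% of cells). Of these, 166 of 196 (84.7%) and 60 of 68 (88.2%) exceeded 10%, against 401 of 2111 (19.0%) and 315 of 1423 (22.1%) of all other cells. Their median mitochondrial shares were 12.2% and 13.5%, against 6.05% and 6.11% in other cells. So most ionocyte-like cells lay between the limits in both libraries; damaged cells and cells rich in mitochondria cannot be told apart by this measure.

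In this larger class the same 5 genes were found in nearly every cell. Ascl3 was detected in 194 of 196 transgenic cells at 1900 CPM and in 68 of 68 wild-type cells at 1302 CPM. Foxi1 was in 190 of 196 and 68 of 68 cells at 561 and 732 CPM, Cftr in all cells of both libraries at 910 and 995 CPM, and Moxd1 in 196 of 196 and 67 of 68 cells at 1437 and 1369 CPM. Coch reached 15346 CPM in the transgenic class and 18488 CPM in the wild-type one, with medians of 203.5 and 224 UMIs per cell. All 5 occurred together in 188 of 196 (95.9%) and 67 of 68 (98.5%) cells, and the low-Coch cells dropped out of the class, which held 0 and 1 cells with under 10 Coch UMIs. Atp6v1b1 remained rare, in 22 of 196 transgenic cells (11.2%) at 13.0 CPM and in 8 of 68 wild-type cells (11.8%) at 20.5 CPM.

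Counted over every barcode of the libraries, the ionocyte genes lay mostly in cells that the 10% limit removes. Of 59328 transgenic Coch UMIs, 38139 (64.3%) were in barcodes that passed the minimum of UMIs but exceeded 10% mitochondrial UMIs, and of 28322 wild-type Coch UMIs, 17973 (63.5%) were. The shares were 57.2% and 54.3% for Ascl3, 59.1% and 52.6% for Foxi1, 60.3% and 65.7% for Cftr, and 62.2% and 62.7% for Moxd1. For all genes together the shares were 15.7% and 12.9%. Atp6v1b1 lay between, with 33.9% and 46.6% of its UMIs in such barcodes and 48.2% and 34.4% in called cells.

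**Figure D4:**
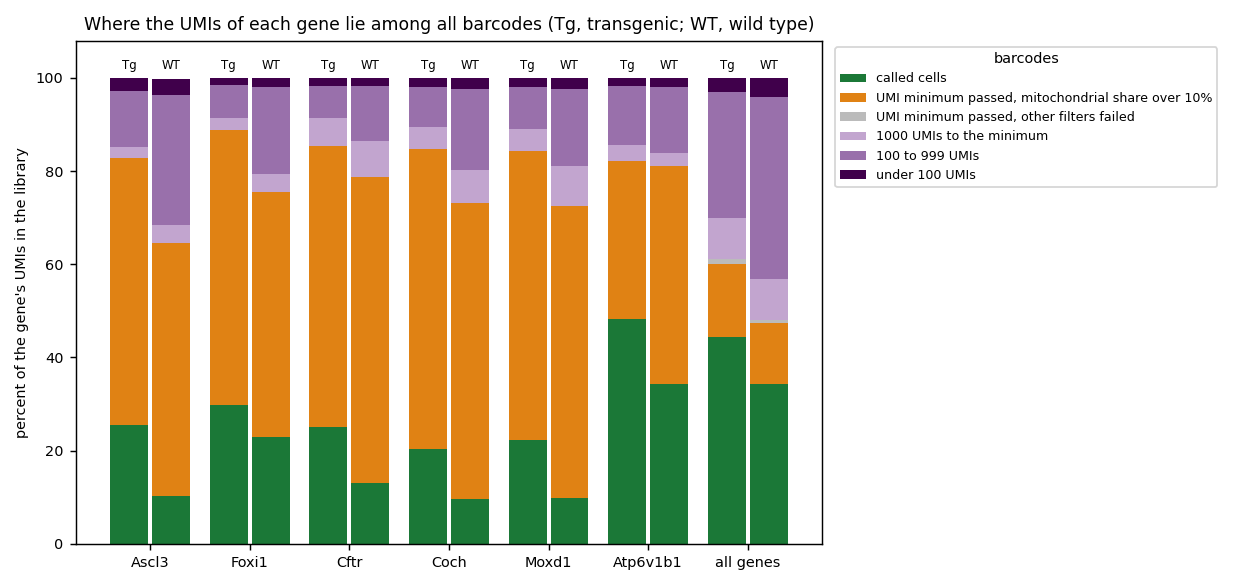
Percent of each gene's UMIs by kind of barcode in the transgenic and wild-type library, from called cells to barcodes with under 100 UMIs, with all genes together for reference. Over 50% of the UMIs of Ascl3, Foxi1, Cftr, Coch and Moxd1 lie in barcodes over the 10% mitochondrial limit, against 15.7% (transgenic) and 12.9% (wild type) for all genes.

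Most other subunit genes of the proton pump had ratios above 0 between the class and other cells. Of 25 listed V-ATPase genes, 21 in the transgenic library and 20 in the wild-type one had enough UMIs, and 9 and 7 of them were 2-fold or more higher in the class and 1 and 1 lower, Atp6v0a4 in the transgenic library and Atp6v1b1 in the wild-type one. Over all genes compared, 6.85% in the transgenic library and 8.69% in the wild-type one were 2-fold or more higher, and 18.1% and 16.2% lower. The median log2 ratio of the listed genes was 0.87 in the transgenic library and 0.48 in the wild-type one, against -0.01 and 0.11 over all genes compared. Atp6ap2, an accessory subunit also known as the prorenin receptor, stood at 769 CPM in ionocyte-like cells of the transgenic mouse and 586 CPM in those of the wild-type mouse, with log2 ratios of 2.40 and 2.24. The catalytic subunit gene Atp6v1a had log2 ratios of 1.51 and 1.05, the stalk subunit gene Atp6v1d 1.95 and 1.77, and the membrane ring genes Atp6v0b and Atp6v0c 1.92 and 1.45, and 1.56 and 1.15. Atp6v1h (1.33 and 1.53) and Atp6v0a2 (1.12 and 1.03) completed the 7 genes that were 2-fold or more higher in both libraries. The wild-type ratio of Atp6v0a2 (interval 0.16 to 1.64) rested on 17 UMIs in the class, and its fold was 1.93 without the 1 UMI added to each sum.

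Isoforms of single subunits differed within the pump. Of the d subunits, Atp6v0d2 was at 157 and 173 CPM in transgenic and wild-type ionocyte-like cells, against 2.36 and 0.9 CPM in other cells, although in the wild-type library it fell under the minimum of 50 UMIs and is named here after its values were seen. Of the B subunits, Atp6v1b2, the widely expressed one, was at 65.1 and 59.0 CPM in the class with log2 ratios of 0.39 (-0.07 to 0.76) and 0.28 (-0.66 to 0.92), so its level could not be separated from that of other cells, and it exceeded Atp6v1b1 at 15.3 and 7.86 CPM. Of the a subunits, Atp6v0a4, a partner of B1 in the kidney pump, was at 2.55 and 11.8 CPM in the class, against 247 and 184 CPM in sustentacular-like cells and 249 and 185 CPM in the Dcpp-led cluster. The genes of B1 and a4 were therefore both lower in the ionocyte-like class than in sustentacular-like cells and the Dcpp-led cluster. Wild-type Atp6v0a4 rested on 3 UMIs in the class and was at 21.0 CPM in all other cells. Its log2 ratio of -0.42 (-3.11 to 0.73) could not be separated from 0.

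**Figure D5:**
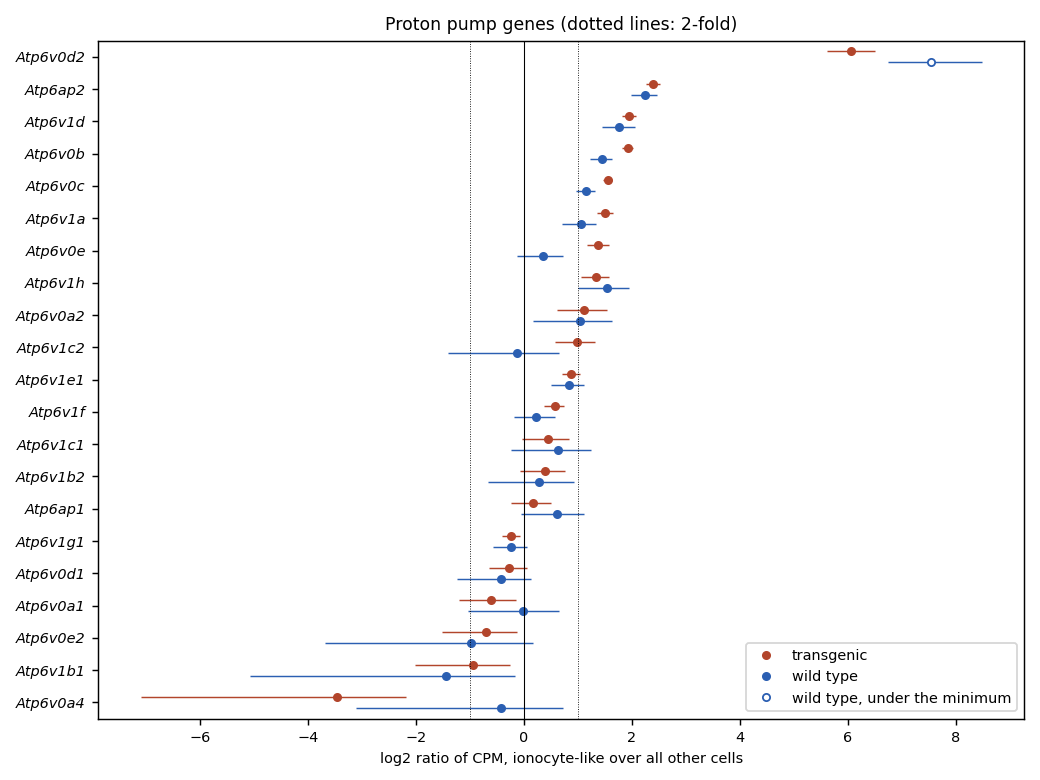
Log2 ratio of the CPM in ionocyte-like cells over that in all other cells for the listed V-ATPase genes, with conditional binomial 95% intervals; red points are the transgenic library, blue points the wild-type library and open points genes under the minimum of UMIs. Genes are ordered by the transgenic ratio, from Atp6v0d2 at 6.05 to Atp6v1b1 at -0.94 and Atp6v0a4 at -3.47; the wild-type order differs, and the wild-type interval of Atp6v0a4 includes 0.

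The ion transport list held genes that were higher and genes that were lower in the class. Of its 34 genes, 17 in each library had enough UMIs. Of these, 7 in the transgenic library and 4 in the wild-type one were 2-fold or more higher, and 7 and 7 lower. The median log2 ratios of the list were 0.57 and 0.02, against -0.01 and 0.11 over all genes compared. Among the genes higher in both libraries, besides Cftr, were the epithelial sodium channel gene Scnn1a, at 199 CPM in the transgenic class and 299 CPM in the wild-type class, and Slc12a2, the sodium-potassium-chloride importer, at 1193 and 935 CPM. Their log2 ratios were 3.62 and 4.40 for Scnn1a, and 2.51 and 1.69 for Slc12a2. The other sodium channel subunit genes Scnn1b and Scnn1g had transgenic log2 ratios of 5.47 and 5.84, with too few UMIs in the wild-type library, where they stood at 138 and 118 CPM in the class against 1.48 and 1.06 CPM in other cells.

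The lower genes included the water channel genes Aqp3, Aqp4 and Aqp5, with transgenic and wild-type log2 ratios of -3.84 and -4.47, -4.03 and -3.48, and -3.08 and -2.54. The carbonic anhydrase gene Car2 (-3.45 and -2.89) and the bicarbonate cotransporter gene Slc4a4 (-3.50 and -1.87) were also lower in both libraries. The potassium channel genes were split: Kcnma1 had log2 ratios of 1.42 and 0.88, and Kcnj15 had no UMI in either class and was at least 6.73-fold lower in the transgenic library, with too few UMIs in the wild-type library. Car12 had no UMI in the class, which set against 3 UMIs makes it at least 7.12-fold lower in the transgenic library and at least 3.24-fold lower in the wild-type one. A larger share of the list than of all genes lay in each direction. Of all genes, 6.85% and 8.69% were higher and 18.1% and 16.2% lower. Cftr itself is 1 of the list's higher genes. Both this list and the V-ATPase list were chosen with earlier results of these data known, so these shares only describe the lists.

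The relatives of the regulators named here differed in level. Foxi2 was at 152 CPM in ionocyte-like cells of the transgenic mouse and 134 CPM in those of the wild-type mouse, against 2.29 and 0.582 CPM in other cells, but it had been used to name the class. Foxi3 and Ascl5 had no UMI in the class and none in the other called cells of either library. Ascl2, a factor of stem and progenitor cells, was at 1.28 CPM in the transgenic class and had no UMI in the wild-type class. Its levels in other cells were 2.56 and 3.17 CPM, and 3 UMIs in the wild-type class would be 11.8 CPM. Ascl4 was at 8.93 and 11.8 CPM in the class, against 2.26 and 2.43 CPM in other cells. Ascl2 and Ascl4 had too few UMIs to be compared. Of the relatives named here, Foxi2 had the highest level in the class.

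The genes most like each member were named by the correlation of mean levels, as log2 of CPM with 5 CPM added, over 35 profiles of a class in a library with 10 or more cells. These points share libraries and their cells differ in depth, so the correlations are descriptions over 11314 genes. Nearest to Ascl3 were Galnt13 (0.98), Smbd1 (0.97), Scnn1g (0.95), Prr18 (0.95) and Foxi2 (0.94). Nearest to Foxi1 were 4930469K13Rik (0.97) and Foxi2 (0.91), to Cftr Scnn1b (0.95), Asgr1 (0.91) and Smbd1 (0.91), to Coch Galnt13 (0.94) and Smbd1 (0.92), and to Moxd1 Galnt13 (0.95) and Foxi2 (0.93). Foxi2 and Asgr1 were among the 9 naming markers. The neighbours of Atp6v1b1 were other genes: Tmem213 (0.94), Atp6v0a4 (0.94), Atp6v1c2 (0.92), Clic6 (0.90) and Elf5 (0.88). None of the 5 nearest genes of Atp6v1b1 was among the 5 nearest of another member.

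Between the mice, levels in the ionocyte-like class differed by 2-fold or more for 1 of the 6 genes, without replicates to set this against. Ascl3 was at 1557 CPM in the transgenic class and 566 CPM in the wild-type class, a log2 ratio of 1.45 (1.21 to 1.72), and at a mitochondrial limit of 20% the ratio was 0.54 (0.45 to 0.64). Of 2927 genes with enough UMIs, 3.62% were 2-fold or more higher and 1.37% 2-fold or more lower in the transgenic class. Moxd1 had a log2 ratio of 0.73 (0.49 to 1.00) and 0.07 (-0.03 to 0.17) at the 20% limit. Foxi1 had -0.21 (-0.49 to 0.09) and -0.39 (-0.52 to -0.25) at the 20% limit. The ratios of Cftr and Coch changed sign with the limit, 0.40 and 0.23 at 10% and -0.13 and -0.27 at 20%. Atp6v1b1, at 12 and 2 UMIs, had 0.49 (-1.21 to 4.16), too few to give a direction.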

How the data were processed

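The deposited values were raw UMI counts per gene and barcode, not filtered to cells. The submitters' processing notes name Cell Ranger 6.1.1 and the build GRCm39 (mm39), whereas Cell Ranger 4 stands in the matrix headers. The members and gene lists were chosen with earlier results of these data known, and the genes that label unnamed clusters were set after their leading genes were seen. In each library, cells were barcodes with at least 10% of the 99th percentile of the 5000 largest totals (5827.5 UMIs transgenic, 5317.7 wild type), 500 genes and at most 10% mitochondrial UMIs, and Scrublet removed 4 and 2 cells. Libraries were clustered together (scanpy 1.11.5, 2000 variable genes, 30 components, 15 neighbours, Leiden resolution 1) without the members and list genes. A cluster was named where at least 3 markers were 2-fold higher and their mean log2 excess was 1 or more. Where 2 or more of its 10 leading genes matched a label set by hand, that label replaced the name. UMIs were summed per class and library, and ratios had 1 UMI added to each sum. A gene was compared where it had 20 CPM and 50 UMIs in at least 1 of the groups compared. The script was tested on simulated data. Named list genes were those 2-fold or more apart in the same direction in both libraries, plus isoforms of the members' subunits and relatives, and each member's 5 nearest genes. Some list genes are not reported here. Alternatives are given in the closing section.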

Additional observations from a re-analysis of the deposited data

How the results depend on the processing

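No paired analysis was possible because each genotype has 1 library, and leaving out a replicate was not possible for the same reason. The number of genes higher among the 6 members was 5 in both libraries under every alternative run except 2: it was 6 in both with the class built from single cells, and 3 in the wild-type library with every cell thinned to 5000 UMIs. The limit on mitochondrial UMIs of 40% and the values without the cells that hold 4 members outside the class were chosen after the data were seen. Values are given for the transgenic library first.

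With at most 20% mitochondrial UMIs the class held 196 and 68 cells. In transgenic cells Ascl3 was then in 99% and Cftr, Coch and Moxd1 in 100%, and in wild-type cells Ascl3, Foxi1 and Cftr were in 100% and Moxd1 and all 5 genes in 98.5%. The V-ATPase list had 2 and 2 lower genes and the wild-type ion transport list 9 higher ones. With at most 40% the class held 207 and 87 cells, with transgenic shares of 99% for Ascl3 and 100% for Cftr, Coch and Moxd1 and wild-type shares of 100% for Cftr, 98.9% for Moxd1 and 95.4% for all 5, Atp6v1b1 in 91.0% of transgenic sustentacular-like cells, 2 and 2 lower V-ATPase genes and 9 higher wild-type ion transport genes. The transgenic over wild-type log2 ratio turned to -0.13 for Cftr and -0.27 for Coch at 20%, and to -0.17 and -0.29 at 40%.

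With the 5% of cells of highest Scrublet score removed, the transgenic class held 29 cells, Ascl3, Foxi1, Cftr, Moxd1 and all 5 genes were in 100% of cells in both libraries, Coch was in 100% of transgenic cells, Atp6v1b1 was in 0% of wild-type cells, the lower V-ATPase genes were 3 and 2 and the higher wild-type ion transport genes 7. Transgenic cells outside the class with 4 members together then numbered 18, against 23. At a Leiden resolution of 0.5 the transgenic class held 77 cells, with Ascl3 in 55.8%, Foxi1 in 57.1%, Cftr in 53.2%, Coch in 59.7%, Moxd1 in 61.0% and all 5 in 50.6%, and Coch was in 75.0% of wild-type cells. The V-ATPase list then had 3 higher transgenic genes and 5 and 2 lower ones, and the log2 ratio between mice was -0.30 for Cftr and -0.46 for Coch. At a resolution of 2, with another seed and with a fixed minimum of 2000 UMIs, Foxi1 was in 100% of wild-type cells, the wild-type V-ATPase list had 2 lower genes, and the Coch ratio between mice was -0.03, -0.03 and -0.04.

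With the class built from cells with 3 or more of the 9 naming markers it held 78 and 27 cells. Foxi1 was in 82.1% and Atp6v1b1 in 37.2% of its transgenic cells, Coch in 59.3% and all 5 in 44.4% of its wild-type cells, and the log2 ratio of Atp6v1b1 over other cells turned to 1.73 and 2.81. By construction this class takes up the cells that hold 4 members outside the cluster, of which 0 and 0 were left. The ion transport list had 11 and 8 higher and 1 and 3 lower genes, and the transgenic V-ATPase list 0 lower ones. With every cell thinned to 5000 UMIs, Foxi1 was in 84.1% and all 5 in 70.5% of transgenic cells, Atp6v1b1 was in 0% of wild-type ionocyte-like cells and in 55.3% and 38.1% of sustentacular-like cells, and its transgenic log2 ratio over other cells turned to 0.16, for which the cause was not tested. The lower V-ATPase genes were 0 and 2, and the wild-type ion transport list had 1 higher and 4 lower genes.

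Counting a gene at 2 UMIs gave Atp6v1b1 in 90.6% of transgenic sustentacular-like and 0% of wild-type ionocyte-like cells. A minimum of 1000 UMIs per cell gave it in 84.9% of transgenic sustentacular-like cells, with 2 lower wild-type V-ATPase genes. Keeping the members in the clustering gave 2 lower transgenic V-ATPase genes. Without a minimum for list genes other than 1 UMI, 11 and 16 ion transport genes were higher and 2 wild-type V-ATPase genes lower. The class of 13 wild-type cells limits the precision of all wild-type shares.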

Other observations

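At a mitochondrial limit of 20%, genes of ion transport that had few UMIs in the smaller class were found in most ionocyte-like cells of both libraries. The sodium channel subunit gene Scnn1b was in 189 of 196 transgenic cells at 347 CPM and in 66 of 68 wild-type cells at 374 CPM, and Scnn1g in 182 and 63 cells at 344 and 276 CPM. Foxi2 was in 165 and 57 cells at 224 and 265 CPM.

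The pump's d2 subunit gene Atp6v0d2 was in 177 of 196 transgenic and 67 of 68 wild-type cells of this larger class, at 238 and 299 CPM, against 3.16 and 2.28 CPM in other cells. Atp6v0a4 was in 16 and 6 cells at 6.88 and 7.24 CPM, against 59.1 and 49.3 CPM in other cells. Atp6v1b2 was in 107 and 41 cells, at 61.5 and 71.2 CPM. Other isoforms were also found widely: Atp6v0d1 was in 130 transgenic and 42 wild-type cells, Atp6v0a2 in 114 and 38, and Atp6v0a1 in 88 and 39. B1 and a4 were thus found in fewer cells of the class than the other isoforms given here.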
